A study of Mus musculus with 3072 samples.

Results

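The Trim5-like and Trim30 paralogs are 8 mouse genes that lie in one stretch of chromosome 7: Trim12a, Trim5, Trim12c, Trim30a, Trim30b, Trim30c, Trim30d and Trim34a. They were taken by name from the count table, in which 8 of 8 were present among 29474 genes, beside 49 other Trim genes. They were chosen by their values in these same data, because reads of Trim12a and Trim30d had been seen almost only in the Apoe knockout groups. All comparisons of knockout with Apoe-bearing groups are therefore descriptions and carry no test.

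TRIM proteins join a RING domain, which gives most of them ubiquitin ligase activity, to a B-box and a coiled coil. In primates TRIM5 binds the capsids of incoming retroviruses and restricts them, and Trim5, Trim12a and Trim12c are the mouse relatives of that gene. The Trim30 genes form a rodent branch of the family, of which Trim30a is known in mice to dampen toll-like receptor signalling by acting on the adaptors TAB2 and TAB3. Many genes of the family are induced by interferons, the cytokines that put cells into an antiviral state.

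The series profiled single microglia, the resident macrophages of the brain, from male mice, sorted as CD11b+ and DAPI- cells into wells and read by a SmartSeq2 protocol. The groups used here were APP/PS1-ApoeKO cortex and hippocampus at 18 months, C57BL/6-ApoeKO cortex at 18 months, APP/PS1 cortex and hippocampus at 17 months, and C57BL/6 cortex at 18 months. They held 1713 cells: 490 of APP/PS1-ApoeKO mice (34.5% of them cortex), 584 of APP/PS1 mice (53.2% cortex) and 639 of C57BL/6 cortex with or without Apoe (48.98% ApoeKO). APP/PS1 mice carry the APPswe and PS1dE9 transgenes and form amyloid plaques, while ApoeKO mice lack the lipid carrier apolipoprotein E. Per the labels, APP/PS1-ApoeKO mice came from crossing APP/PS1 mice with a C57Bl/6 breeder null for Apoe. The C57BL/6-ApoeKO mice are named only as a control strain. No animal is named in the labels, so every group counts as 1 sample and no difference between groups has a replicate check. Apoe genotype, line, sequencing lane and 1 month of age cannot be told apart in the APP/PS1 pairs, and Apoe genotype and line cannot be told apart in the C57BL/6 pair, whose groups shared both lanes.

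Levels are reads per 1000000 reads of all genes of a group (RPM). Each knockout group is paired with the Apoe-bearing group of the same tissue that likewise has, or lacks, the APP/PS1 transgenes. Where values stand in threes they follow the order APP/PS1 cortex pair, APP/PS1 hippocampus pair, C57BL/6 cortex pair. The labels' plate numbers divide a group into parts that are not replicates. A read is not a molecule, since no molecular identifiers were counted, and every interval given covers counting error only. Where knockout and Apoe-bearing groups are said not to overlap, the share of all genes that separate likewise is not given. Such statements describe the values only.

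The groups held 74767907 to 241536311 reads, with a median of 442917 to 765703 reads per cell and 7.63% to 13.2% ribosomal RNA in the median cell. Apoe itself stood at 0.0669 RPM in APP/PS1-ApoeKO cortex against 13406 RPM in APP/PS1 cortex, 0.746 RPM in APP/PS1-ApoeKO hippocampus against 11919 RPM in APP/PS1 hippocampus, and 2.96 RPM in C57BL/6-ApoeKO cortex against 485 RPM in C57BL/6 cortex. The 9 microglial markers summed to between 46835 and 53873 RPM in the 6 groups, with none at 0. Of the other cell types' lists, oligodendrocyte markers were highest. They stood at 77.4, 76.4 and 95.3 RPM in knockout cells, against 68.3, 57.97 and 71.2 RPM in Apoe-bearing cells, with Mog at 0 throughout. Their part in the results was not tested. Monocyte markers summed to 28.4, 4.21 and 3.33 RPM in knockout cells, against 5.30, 10.7 and 22.8 RPM in Apoe-bearing cells. Border-associated macrophage markers summed to 3.42, 0.587 and 9.54 RPM in knockout cells, against 2.95, 0.634 and 0.389 RPM in Apoe-bearing cells. Neutrophil markers summed to at most 0.575 RPM and T or NK cell markers to at most 0.0134 RPM. The part of these lists was not tested either.

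On the GRCm38 assembly the genes run from Trim34a (chr7:104244457-104262234) through Trim5 (chr7:104263386-104288094), Trim12a (chr7:104299894-104315466), Trim12c (chr7:104338754-104353362), Trim30b (chr7:104355382-104369884), Trim30c (chr7:104382065-104400837) and Trim30a (chr7:104409025-104465193) to Trim30d (chr7:104470014-104507849). Trim34a is on the plus strand and the others are on the minus strand. Trim34b, a near copy of Trim34a that is not among the 8, lies on the plus strand between Trim12a and Trim12c (chr7:104329471-104336909). The Apoe gene is on the same chromosome (chr7:19696109-19699188), 84.5 Mb from the nearest of the 8.

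The promoters of the Trim5-like trio and of Trim30d and Trim30a are shown because these near copies carried very different read numbers. Each covers 250 bases before to 50 bases after the RefSeq start on GRCm38.p6. Capitals mark a match to the interferon-stimulated response element, searched on both strands as GAAA, any 2 bases, and GAAA again.
Trim12a (chr7:104315446-104315745, minus strand): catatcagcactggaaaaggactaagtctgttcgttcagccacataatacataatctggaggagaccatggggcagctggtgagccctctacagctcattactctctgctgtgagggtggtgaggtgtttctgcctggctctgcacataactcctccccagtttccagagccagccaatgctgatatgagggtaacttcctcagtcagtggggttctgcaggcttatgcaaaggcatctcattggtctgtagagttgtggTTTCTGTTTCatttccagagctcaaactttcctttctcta
Trim5 (chr7:104288057-104288356, minus strand): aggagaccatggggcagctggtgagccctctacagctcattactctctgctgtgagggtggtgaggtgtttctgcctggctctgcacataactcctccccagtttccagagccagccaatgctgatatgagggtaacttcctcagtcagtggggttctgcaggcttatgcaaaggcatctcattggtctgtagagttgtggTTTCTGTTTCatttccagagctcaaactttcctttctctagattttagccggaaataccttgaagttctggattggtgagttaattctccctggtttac
Trim12c (chr7:104353300-104353599, minus strand): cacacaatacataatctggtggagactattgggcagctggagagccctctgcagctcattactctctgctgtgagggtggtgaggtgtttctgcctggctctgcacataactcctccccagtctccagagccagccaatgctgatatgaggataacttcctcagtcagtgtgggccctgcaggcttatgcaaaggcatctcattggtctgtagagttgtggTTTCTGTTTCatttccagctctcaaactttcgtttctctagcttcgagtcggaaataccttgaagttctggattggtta
Trim30d (chr7:104507800-104508099, minus strand): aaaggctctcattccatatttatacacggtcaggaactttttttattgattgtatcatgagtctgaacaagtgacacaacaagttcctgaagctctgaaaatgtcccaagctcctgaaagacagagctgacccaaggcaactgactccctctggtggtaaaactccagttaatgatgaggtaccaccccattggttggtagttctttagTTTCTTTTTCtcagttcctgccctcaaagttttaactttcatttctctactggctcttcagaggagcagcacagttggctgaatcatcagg
Trim30a (chr7:104465144-104465443, minus strand): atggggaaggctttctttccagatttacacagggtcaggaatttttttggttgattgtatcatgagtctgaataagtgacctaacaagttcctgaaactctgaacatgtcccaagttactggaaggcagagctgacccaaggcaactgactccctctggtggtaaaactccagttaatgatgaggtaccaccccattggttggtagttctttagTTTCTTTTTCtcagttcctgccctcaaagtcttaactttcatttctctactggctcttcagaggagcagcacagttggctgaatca
All 5 matches lie on the strand opposite to that of the gene. Where they align, the promoters of Trim12a and Trim5 were 100% identical and those of Trim12a and Trim12c 95%, while those of Trim30d and Trim30a were 93.9% identical. The element was found in 6 of the 8 genes, the 5 shown and Trim34a, and in neither Trim30b nor Trim30c, against 3.44% of 32851 RefSeq promoters of the same length. For Trim30b the stretch searched (chr7:104358597-104358896) lies inside the annotated gene, which runs to 104369884 on the minus strand. The stretch before that outer end was not searched. Trim30a has a second RefSeq start (chr7:104446076-104446375), whose promoter also held 1 match. A match is a description of letters and not a binding site. The NF-kappa-B element, searched as GGGA and CC with any 4 bases between them, was found in 0 of the 8 (20.7% of all promoters).

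The coding sequences are close as well, which bears on how reads could be placed between the genes. The first 60 coding bases of the Trim5-like trio are printed with capitals where a base differs from Trim12c.
Trim12a: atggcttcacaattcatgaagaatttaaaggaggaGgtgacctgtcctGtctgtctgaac
Trim5: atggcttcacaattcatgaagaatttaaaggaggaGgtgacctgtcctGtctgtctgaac
Trim12c: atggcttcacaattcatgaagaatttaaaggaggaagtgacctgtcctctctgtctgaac
Those of the Trim30 pair have capitals where a base differs from Trim30a.
Trim30d: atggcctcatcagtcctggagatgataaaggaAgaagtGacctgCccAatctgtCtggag
Trim30a: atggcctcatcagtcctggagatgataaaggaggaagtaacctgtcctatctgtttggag
Those of the Trim34 pair have capitals where a base differs from Trim34a.
Trim34a: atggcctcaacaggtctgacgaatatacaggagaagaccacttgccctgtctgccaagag
Trim34b: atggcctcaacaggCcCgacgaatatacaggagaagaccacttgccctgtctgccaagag
Over the aligned coding bases Trim12a was 96.98% identical to Trim5 and 96.3% identical to Trim12c, and Trim5 was 96.6% identical to Trim12c. The annotated coding sequence of Trim12a has 894 bases, against 1494 in Trim5 and Trim12c, and its protein is known to lack the capsid-binding SPRY domain of the other two. Trim30d was 90.2% identical to Trim30a, and Trim34b 98.8% identical to Trim34a. Of the 50-base stretches in the annotated transcripts of Trim12a, 7.78% occurred in another of these genes or Trim34b, against 29.5% for Trim5, 28.6% for Trim12c, 7.49% for Trim30d, 5.98% for Trim30a, 39.8% for Trim34a and 56.8% for Trim34b. For Trim30b and Trim30c the share was 0.406% and 0.660%. The sources used here do not say whether strand was used or how reads with several matches were counted. Values of Trim5 and Trim12c may therefore hold reads of one another, as may those of Trim34a and Trim34b. To a lesser extent this also holds for Trim12a and Trim30d. Trim12a shared 5.04% of its stretches with Trim5 and 3.96% with Trim12c, and Trim30d shared 6.39% with Trim30a. Trim34a shares 609 exonic bases with the antisense gene Gm47248.

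Trim12a, a TRIM5 relative, was read in every knockout group and nearly absent from every group with Apoe. Its level was 51.9 RPM in APP/PS1-ApoeKO cortex against 0.0106 RPM in APP/PS1 cortex, 34.7 RPM in APP/PS1-ApoeKO hippocampus against 0.00641 RPM in APP/PS1 hippocampus, and 57.4 RPM in C57BL/6-ApoeKO cortex against 0.00414 RPM in C57BL/6 cortex. In reads, the knockout groups held 3879, 5264 and 11398, against 2, 1 and 1 in the groups with Apoe. The groups do not overlap, nor do their plate numbers, which ran from 28.7 to 64.98 RPM over the knockout groups, against 0 to 0.0352 RPM over the groups with Apoe. The ratio was 4884 (1351 to 40344) in the APP/PS1 cortex pair, 5419 (972 to 214087) in the hippocampus pair and 13855 (2486 to 547286) in the C57BL/6 pair, and the intervals are wide because 1 or 2 reads stand in the denominator. With 0.5 RPM added to both levels, the log2 ratios were 6.68, 6.12 and 6.84.

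A sum cannot tell fewer cells with a gene from less RNA of it per cell, so the share of cells with a read was counted as well, after thinning each cell to 100000 reads. For Trim12a it was 14.8% of APP/PS1-ApoeKO cortex cells (95% exact interval 9.81 to 21.1), 17.2% of APP/PS1-ApoeKO hippocampus cells (13.3 to 21.8) and 25.6% of C57BL/6-ApoeKO cortex cells (20.9 to 30.9), against 0% in each group with Apoe (upper bounds 1.18, 1.35 and 1.12%). Without thinning the shares were 18.3, 18.7 and 27.2% in knockout cells, against 0.643, 0.366 and 0.307% in Apoe-bearing cells. At least 10 reads of Trim12a were held by 23, 45 and 70 knockout cells, against 0 cells in each group with Apoe. The 5 cells with the most reads gave 46.6, 31.1 and 18.5% of the reads of the knockout groups. Cells with a Trim12a read were not uniformly deeper: their median read total was 479184 against 438797 in cells without one in APP/PS1-ApoeKO cortex, 425554 against 446393 in APP/PS1-ApoeKO hippocampus, and 726070 against 676057 in C57BL/6-ApoeKO cortex.

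Trim5, the namesake of the primate restriction factor, stood at 15.3 RPM in APP/PS1-ApoeKO cortex against 0.414 RPM in APP/PS1 cortex, 14.9 RPM in APP/PS1-ApoeKO hippocampus against 0.320 RPM in APP/PS1 hippocampus, and 23.2 RPM in C57BL/6-ApoeKO cortex against 0.286 RPM in C57BL/6 cortex. The ratio was 37 (29.4 to 47.2) in the APP/PS1 cortex pair, 46.6 (35.2 to 63.02) in the hippocampus pair and 81.3 (64.1 to 104.7) in the C57BL/6 pair. The group levels do not overlap, but 1 plate number of APP/PS1-ApoeKO hippocampus stood at 0.0513 RPM, below the 0.188 to 0.475 RPM of APP/PS1 hippocampus. Shares of cells differed less than levels, with 9.47, 6.27 and 11.4% in knockout cells, against 2.89, 1.47 and 2.15% in Apoe-bearing cells, all after thinning. The cells with a read held more of them in the knockout groups: at least 10 reads were found in 11, 16 and 34 knockout cells, against 3, 0 and 1 Apoe-bearing cells.

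In the groups with Apoe, cells with a Trim5 read were nearly always cells with Trim12c reads as well. This held for 16 of 16 such cells in APP/PS1 cortex, 15 of 18 in APP/PS1 hippocampus and 14 of 15 in C57BL/6 cortex. Among knockout cells it held for 8 of 18 in cortex and 10 of 24 in hippocampus of APP/PS1-ApoeKO mice, and for 2 of 42 in C57BL/6-ApoeKO cortex. Trim5 reads, as a percentage of Trim12c reads, came to 35.6, 73.7 and 82.2% in knockout cells, against 1.30, 1.41 and 0.757% in Apoe-bearing cells. Whether reads of Trim12c or Trim12a were counted as Trim5 was not tested.

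**Figure D1:**
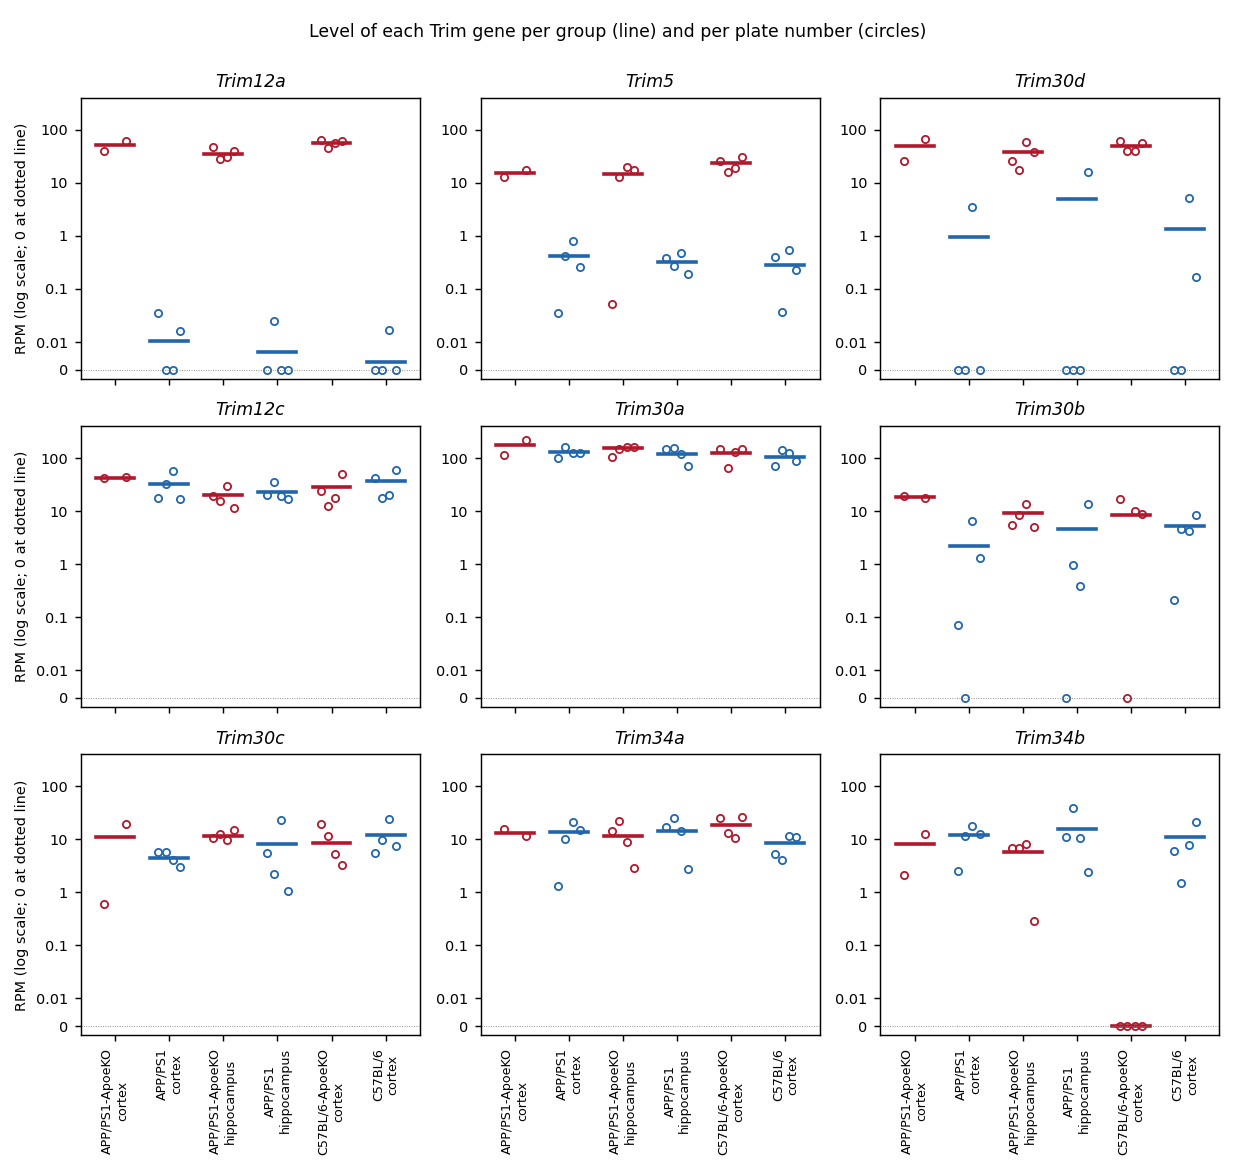
Level of each gene in RPM on a log axis, with 0 drawn at the dotted line. Red marks knockout groups and blue groups with Apoe, short lines give the group level and circles the plate numbers, which are parts of a group and not replicates. Trim12a lies between 34.7 and 57.4 RPM in the knockout groups, against at most 0.0106 RPM in the groups with Apoe, while the levels of Trim12c and Trim30a lie close together.

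Trim12c, the other TRIM5 relative, was read in all groups, at 43 RPM in APP/PS1-ApoeKO cortex against 31.9 RPM in APP/PS1 cortex, 20.3 RPM in APP/PS1-ApoeKO hippocampus against 22.8 RPM in APP/PS1 hippocampus, and 28.3 RPM in C57BL/6-ApoeKO cortex against 37.7 RPM in C57BL/6 cortex. Its ratio was 1.35 (1.29 to 1.41) in the APP/PS1 cortex pair, 0.889 (0.847 to 0.933) in the hippocampus pair and 0.749 (0.724 to 0.774) in the C57BL/6 pair, so it went both ways, and its plate numbers overlapped in each pair. Without plate number 2 the log2 ratio of the hippocampus pair was 0.24, against -0.17 with all wells. Thinned shares of cells were 14.2, 10.7 and 7.47% in knockout cells, against 13.2, 12.1 and 14.4% in Apoe-bearing cells. As a sum, the Trim5-like trio stood at 110, 69.9 and 108.9 RPM in knockout cells, against 32.4, 23.1 and 38.03 RPM in Apoe-bearing cells. Trim12a gave 47.1, 49.7 and 52.7% of these reads in knockout cells, while Trim12c gave 98.7, 98.6 and 99.2% of them in Apoe-bearing cells. Per kilobase of exon, Trim12a reached 8.97, 6.01 and 9.92 RPM in the knockout groups, close to the 11.5, 5.42 and 7.56 RPM of Trim12c in the same cells.

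**Figure D2:**
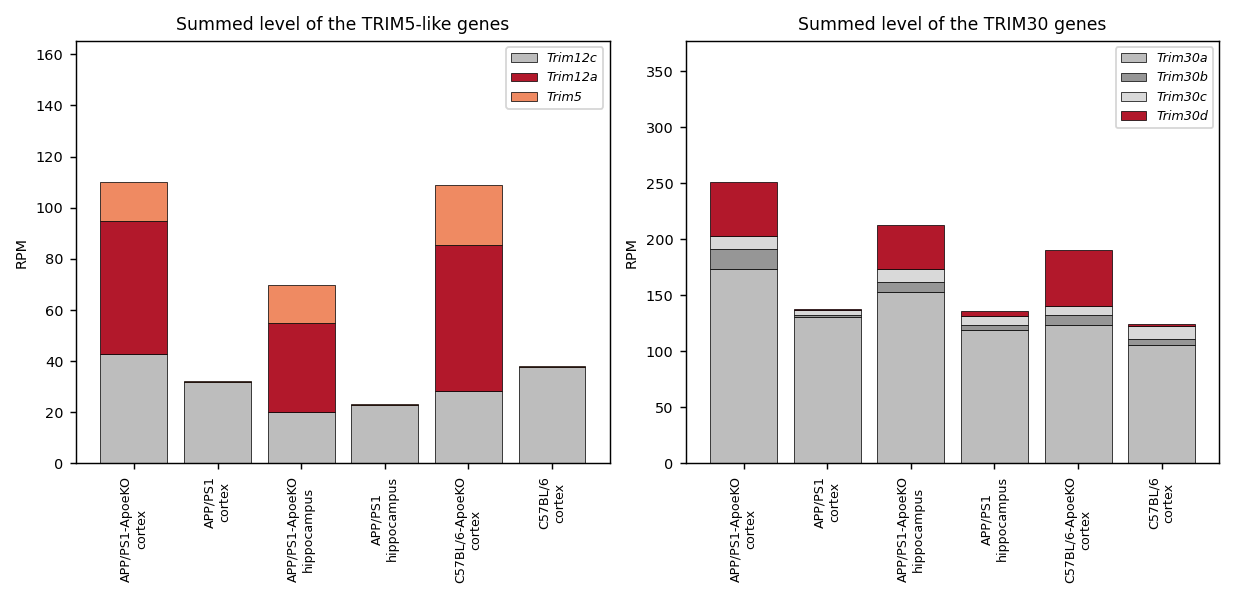
Summed level in RPM of the Trim5-like genes (left) and of the Trim30 genes (right) by group, with each gene as one segment of the bar. The left bars reach 110, 69.9 and 108.9 RPM in the knockout groups, against 32.4, 23.1 and 38.03 RPM in the groups with Apoe, and the Trim12a, Trim5 and Trim30d segments are large only in the knockout bars.

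Trim30d, the closest relative of Trim30a, followed the pattern of Trim12a. Its level was 48.7 RPM in APP/PS1-ApoeKO cortex against 0.967 RPM in APP/PS1 cortex, 38.8 RPM in APP/PS1-ApoeKO hippocampus against 4.93 RPM in APP/PS1 hippocampus, and 49.5 RPM in C57BL/6-ApoeKO cortex against 1.37 RPM in C57BL/6 cortex. The ratio was 50.4 (43.4 to 58.8) in the APP/PS1 cortex pair, 7.87 (7.30 to 8.49) in the hippocampus pair and 36.2 (32.4 to 40.5) in the C57BL/6 pair. All knockout groups were above all groups with Apoe, and within each pair the plate numbers did not overlap. The thinned share of cells with a read was 14.2, 14.4 and 25.3% in knockout cells, against 0.322, 0.368 and 0.307% in Apoe-bearing cells. In the knockout groups 28, 52 and 88 cells held its reads, and the 5 cells with the most gave 69.5, 43.8 and 26.2% of them.

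The Trim30d reads of the groups with Apoe came from very few cells. In APP/PS1 cortex 1 cell, which also held 55443 Apoe reads, carried all of them, and in APP/PS1 hippocampus 1 cell with 644 Apoe reads carried all 769. In C57BL/6 cortex 3 cells carried 330 reads, and these cells had 0 Apoe reads. Most cells of that group had none, since only 31.6% held an Apoe read without thinning. The hippocampus ratio rests on the 1 cell: without the wells of plate number 4 its log2 value was 6.30, against 2.86 with all wells. Leaving out plate number 3 lowered it to 1.90. In the APP/PS1 cortex pair the log2 ratio was 7.08 without plate number 3 and 3.73 without plate number 4, against 5.07 with all wells. In the C57BL/6 pair it was 6.51 without plate number 3, against 4.74, and 6.46 and 4.18 within the shared lanes. The groups thus stayed apart while the size of the ratio moved with few wells. Reads of Trim30d amounted to 28.1, 25.3 and 39.9% in knockout cells, against 0.742, 4.15 and 1.29% in Apoe-bearing cells, as a percentage of the reads of Trim30a.

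Trim30a, the dampener of toll-like receptor signalling, had the highest level of the 8 per kilobase of exon in each of the 6 groups, 42.3, 37.2 and 30.1 RPM per kilobase in knockout cells, against 31.7, 28.9 and 25.8 RPM per kilobase in Apoe-bearing cells. Its level was 173.7 RPM in APP/PS1-ApoeKO cortex against 130 RPM in APP/PS1 cortex, 153.1 RPM in APP/PS1-ApoeKO hippocampus against 118.8 RPM in APP/PS1 hippocampus, and 123.9 RPM in C57BL/6-ApoeKO cortex against 105.9 RPM in C57BL/6 cortex. The ratio was 1.33 (1.30 to 1.36) in the APP/PS1 cortex pair, 1.29 (1.26 to 1.31) in the hippocampus pair and 1.17 (1.15 to 1.19) in the C57BL/6 pair. Plate numbers overlapped in each pair, for example 64.5 to 150 RPM in C57BL/6-ApoeKO cortex against 71.3 to 140 RPM in C57BL/6 cortex. Leaving out plate number 4 turned the log2 ratio to -0.23 in the APP/PS1 cortex pair, against 0.41 with all wells, and to -0.06 in the C57BL/6 pair, against 0.22. Thinned shares of cells with a read were 33.1, 34.5 and 33.8% in knockout cells, against 32.1, 28.3 and 25.1% in Apoe-bearing cells.

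Trim30b and Trim30c, members of the same branch, were read in few cells. Trim30b stood at 18.2 RPM in APP/PS1-ApoeKO cortex against 2.24 RPM in APP/PS1 cortex, 9.24 RPM in APP/PS1-ApoeKO hippocampus against 4.54 RPM in APP/PS1 hippocampus, and 8.49 RPM in C57BL/6-ApoeKO cortex against 5.30 RPM in C57BL/6 cortex. Its ratio was 8.12 (7.27 to 9.07) in the APP/PS1 cortex pair, 2.03 (1.86 to 2.23) in the hippocampus pair and 1.60 (1.49 to 1.72) in the C57BL/6 pair, from 7, 15 and 14 knockout cells against 4, 4 and 6 Apoe-bearing cells. Only in the APP/PS1 cortex pair, with 2 knockout plate numbers, did its plate numbers not overlap. There its log2 ratio was 4.02 without plate number 3, against 2.77 with all wells. In the hippocampus pair it was 0.07 without plate number 3 and 3.43 without plate number 4, against 0.95. In the C57BL/6 pair it was 0.09 without plate number 1 and 1.18 without plate number 4, against 0.63.

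Trim30c stood at 10.99 RPM in APP/PS1-ApoeKO cortex against 4.41 RPM in APP/PS1 cortex, 11.7 RPM in APP/PS1-ApoeKO hippocampus against 8.14 RPM in APP/PS1 hippocampus, and 8.61 RPM in C57BL/6-ApoeKO cortex against 11.9 RPM in C57BL/6 cortex. Its ratio was 2.49 (2.26 to 2.75) in the APP/PS1 cortex pair, 1.44 (1.34 to 1.54) in the hippocampus pair and 0.720 (0.678 to 0.765) in the C57BL/6 pair. The plate numbers of APP/PS1-ApoeKO cortex were far apart, at 0.610 and 19.1 RPM, against 2.95 to 5.85 RPM in APP/PS1 cortex. Without plate number 4 the log2 ratio of that pair was -2.35, against 1.23 with all wells, so its direction rests on those wells. In the hippocampus pair it was 2.21 without plate number 3 and -0.08 without plate number 4, against 0.50. In the C57BL/6 pair it was 0.31 without plate number 3, against -0.45, and 0.58 and -1.67 within the shared lanes. Of the reads of the 4 Trim30 genes together, Trim30a gave 69.04, 71.9 and 65.04% in knockout cells, against 94.5, 87.1 and 85.05% in Apoe-bearing cells.

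Trim34a, related to the interferon-induced human TRIM34, stood at 13.3 RPM in APP/PS1-ApoeKO cortex against 13.7 RPM in APP/PS1 cortex, 11.5 RPM in APP/PS1-ApoeKO hippocampus against 14.1 RPM in APP/PS1 hippocampus, and 18.96 RPM in C57BL/6-ApoeKO cortex against 8.61 RPM in C57BL/6 cortex. Its ratio was 0.975 (0.905 to 1.05) in the APP/PS1 cortex pair, 0.818 (0.768 to 0.871) in the hippocampus pair and 2.20 (2.09 to 2.33) in the C57BL/6 pair. In the C57BL/6 pair the log2 ratio was 1.91 and 0.63 within the shared lanes and 0.89 without plate number 1, against 1.10 with all wells, and the plate numbers overlapped, at 10.6 to 26.3 RPM in C57BL/6-ApoeKO cortex against 4.11 to 11.3 RPM in C57BL/6 cortex. Thinned shares of cells with a read were 10.1, 9.40 and 11.4% in knockout cells, against 9.97, 9.19 and 7.67% in Apoe-bearing cells.

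Its near copy Trim34b was read in the knockout mice with the APP/PS1 transgenes and not in those without them. In C57BL/6-ApoeKO cortex it had 0 reads, for which the exact upper bound is 1.17% of cells with a read, against 2621 reads and 10.8 RPM in C57BL/6 cortex, at least 719-fold lower with 3 reads set as the floor of a group. In mice with the APP/PS1 transgenes it was read with and without Apoe, at 8.12 RPM in APP/PS1-ApoeKO cortex against 12.3 RPM in APP/PS1 cortex, and at 5.86 RPM in APP/PS1-ApoeKO hippocampus against 15.4 RPM in APP/PS1 hippocampus. Summed, the Trim34 pair stood at 21.4, 17.4 and 18.96 RPM in knockout cells, against 25.9, 29.5 and 19.5 RPM in Apoe-bearing cells. In the C57BL/6 pair the sum was thus nearly level, while Trim34a was higher and Trim34b lower in the knockout. How reads were split between these copies was not tested.

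**Figure D3:**
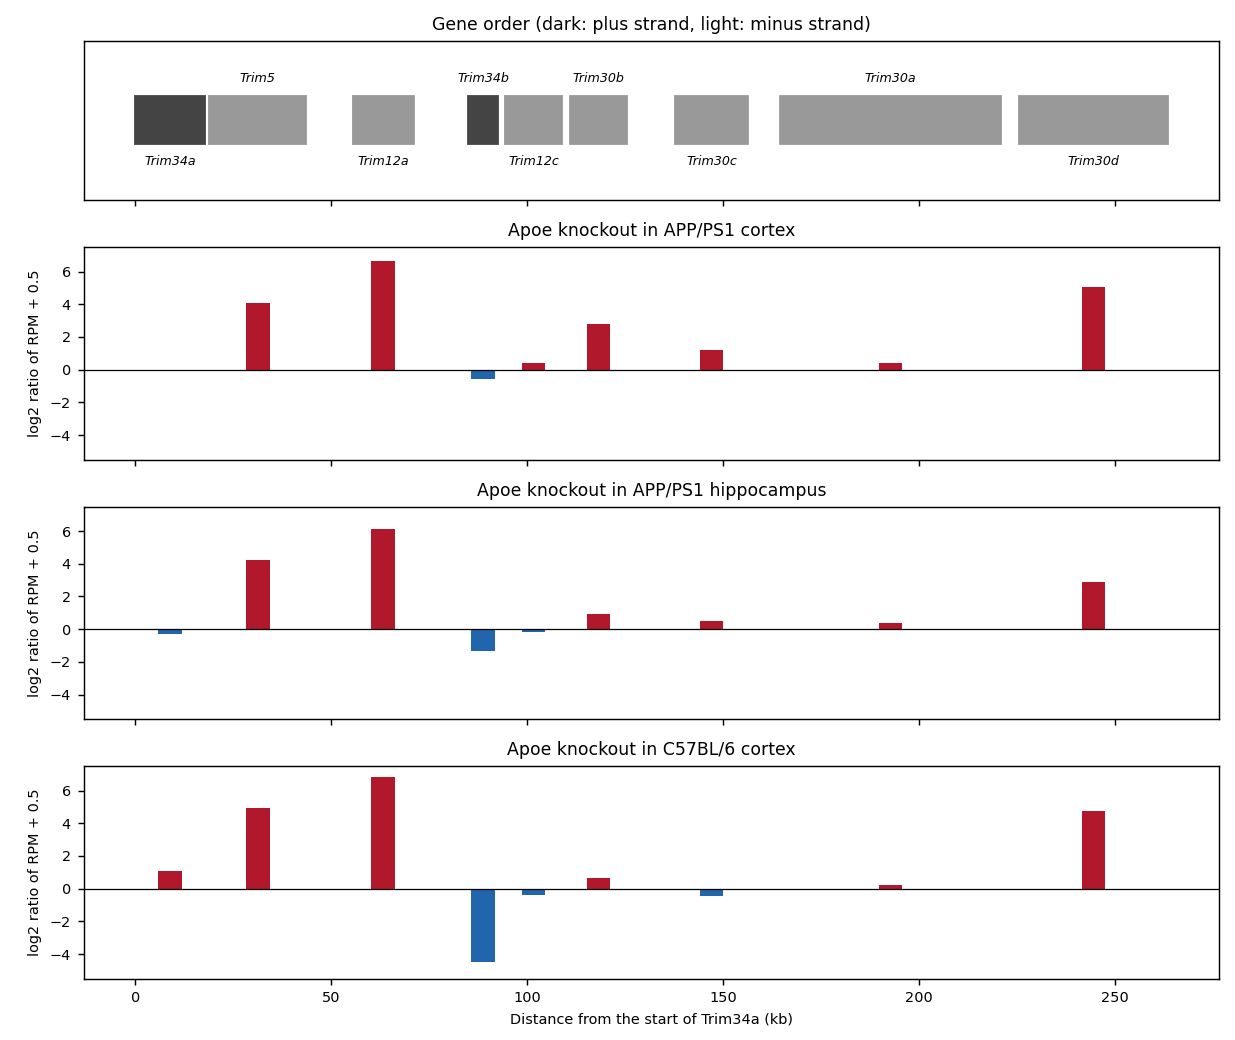
Position of the 9 genes by distance in kb from the start of Trim34a (top), and the log2 ratio of knockout over Apoe-bearing levels with 0.5 RPM added, as 1 bar per gene in 1 panel per pair. The bars of Trim12a reach 6.68, 6.12 and 6.84, and those of Trim5 and Trim30d are also tall in all 3 panels, while Trim12c and Trim30a between them stay near 0.

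By a 2-fold rule on levels with 0.5 RPM added, 5 of 8 genes were apart in the APP/PS1 cortex pair, all higher in the knockout (Trim12a, Trim5, Trim30d, Trim30b and Trim30c), where 30.9% of 13459 genes at 1 RPM or more were apart and 18.9% were higher. In the hippocampus pair 3 of 8 were apart and higher (Trim12a, Trim5 and Trim30d), beside 24.7% of 13309 genes apart and 14.6% higher. In the C57BL/6 pair 4 of 8 were apart and higher (Trim12a, Trim5, Trim30d and Trim34a), beside 23.3% of 13626 genes apart and 12.9% higher. These comparisons chose the genes, so nothing is read from the counts. The median log2 ratio of the 8 was 2.00, 0.72 and 0.86, against 0.21, 0.08 and 0.05 over all genes measured. Just inside the rule stood Trim34a in the C57BL/6 pair (log2 ratio 1.10) and just outside it Trim30b in the hippocampus pair (0.95).

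The share of cells with a read of at least 1 of the 8 genes, without thinning, was 67.5, 68.5 and 75.4% in knockout cells, against 46.3, 45.8 and 47.2% in Apoe-bearing cells. Trim12a and Trim30d were mostly read in different cells. Of the knockout cells with Trim30d reads, 4 of 28, 12 of 52 and 24 of 88 also had Trim12a reads, that is 14.3%, 23.1% and 27.3%, against 19.1%, 17.8% and 27.1% of the knockout cells without Trim30d. Of the knockout cells with Trim5 reads, 44.4%, 29.2% and 47.6% had Trim12a reads, against 15.2%, 17.9% and 23.99% of those without. A cell with no read may still hold the transcript.

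**Figure D4:**
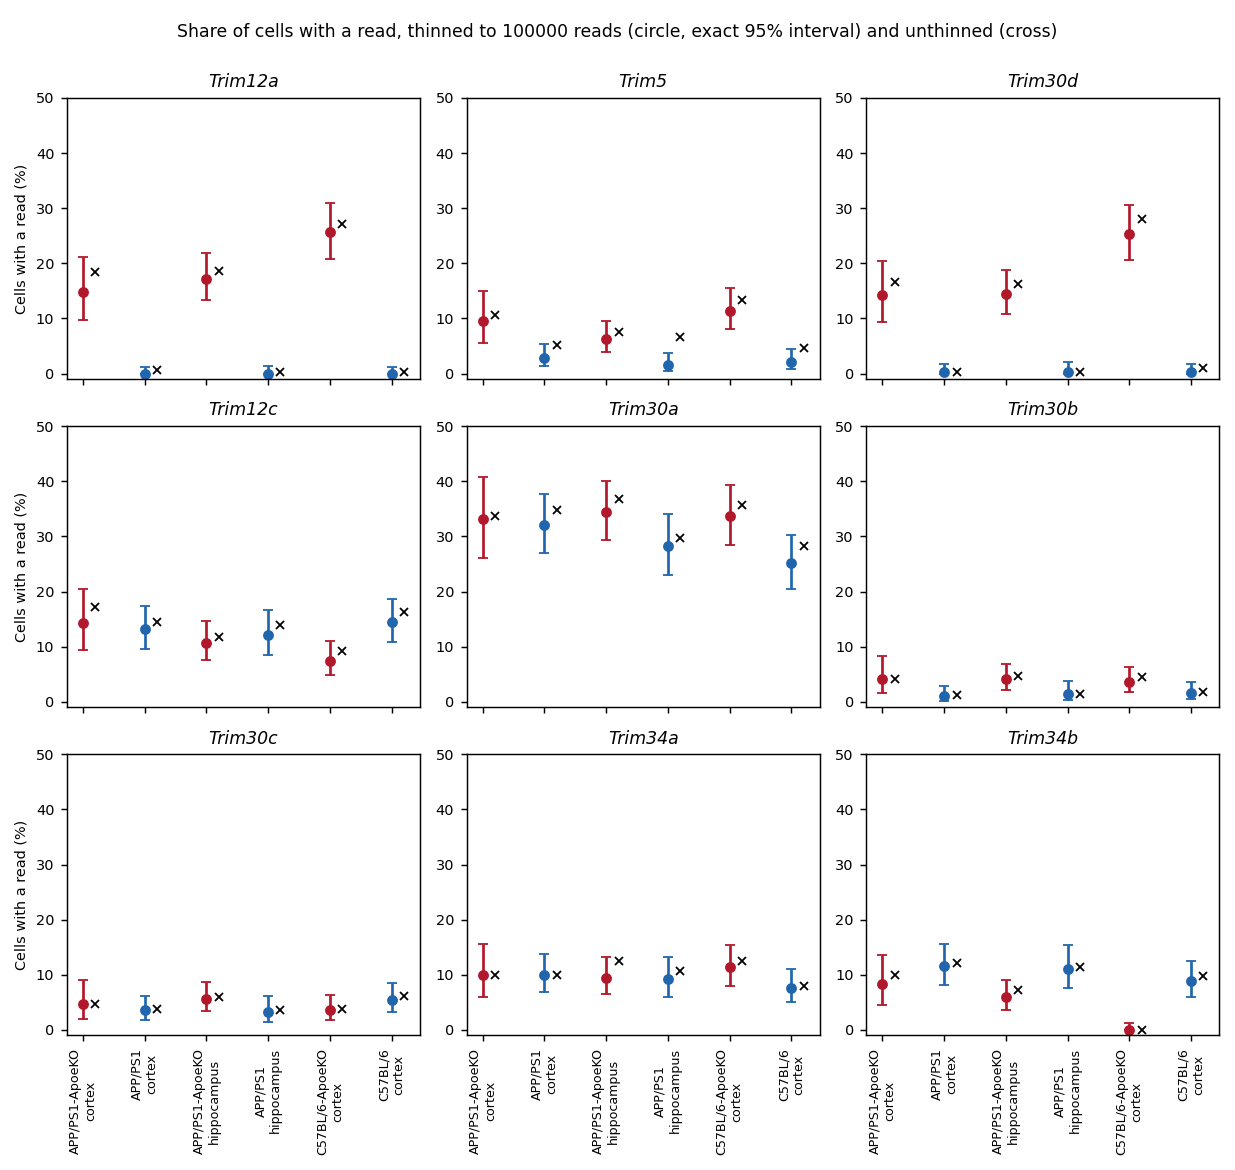
Percentage of cells with at least 1 read of each gene, after thinning to 100000 reads per cell (circles with exact 95% intervals) and without thinning (crosses). Red marks knockout groups and blue groups with Apoe. Trim12a and Trim30d lie between 14.2% and 25.6% in the knockout groups, against at most 0.368% in the groups with Apoe, and Trim30a between 25.1% and 34.5% in all groups.

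Amyloid and sequencing lane cannot be told apart in cortex, and with Apoe present neither can 1 month of age (17 months in APP/PS1, 18 months in C57BL/6). Amyloid was not used to choose the 8 genes and was tested over the 6 group sums, in a model with terms for Apoe genotype, amyloid and tissue. edgeR's quasi-likelihood test with Benjamini-Hochberg adjustment called 0 of the 8 and 0% of 18171 genes, with 808 at an unadjusted p under 0.05. DESeq2 called 1.76% of the genes and 0 of the 8. Trim30a came nearest, with an edgeR log2 fold change of 0.41 (SE 0.15, adjusted p = 0.917), and was higher with amyloid in both cortex comparisons, although without plate number 4 its log2 ratio without Apoe was 0.04, against 0.49 with all wells. The estimates of the other 7 lay between -0.55 (Trim30c, SE 0.61) and 0.20 (Trim12c, SE 0.28). The spread behind these errors is that between sums of different genotypes and tissues. With only 6 sums for these terms, 0 calls here or for tissue do not show that levels were equal.

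Without Apoe, 1 of 8 genes was at least 2-fold higher and 0 were lower in APP/PS1-ApoeKO than in C57BL/6-ApoeKO cortex, beside 13.3% of 13614 genes higher and 13.2% lower. It was Trim30b, at 18.2 RPM in APP/PS1-ApoeKO against 8.49 RPM in C57BL/6-ApoeKO cortex (ratio 2.14, interval 1.99 to 2.301), and 1 of 8 is close to the background share. Trim12a stood at 51.9 RPM in APP/PS1-ApoeKO against 57.4 RPM in C57BL/6-ApoeKO cortex, and Trim30d at 48.7 RPM in APP/PS1-ApoeKO against 49.5 RPM in C57BL/6-ApoeKO cortex. With Apoe, 0 genes were 2-fold higher and 2 were lower in APP/PS1 than in C57BL/6 cortex, of 6 measured, beside 9.92% of 13356 genes higher and 13.2% lower. They were Trim30b, at 2.24 RPM in APP/PS1 against 5.30 RPM in C57BL/6 cortex (ratio 0.423, interval 0.378 to 0.472), and Trim30c, at 4.41 RPM in APP/PS1 against 11.9 RPM in C57BL/6 cortex (ratio 0.369, interval 0.341 to 0.399). Reads of Trim30b in these groups came from 4 and 6 cells. The calls rest on few wells: the log2 ratio of Trim30b without Apoe was 0.68 without plate number 2, against 1.06, and with Apoe -0.79 without plate number 2, -2.48 without plate number 3 and -0.27 without plate number 4, against -1.08. That of Trim30c with Apoe was -0.73 without plate number 3, against -1.34.

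Between hippocampus and cortex edgeR called 0 of the 8 and 0% of 18171 genes, with 573 at an unadjusted p under 0.05, and DESeq2 called 0.875% of the genes and 0 of the 8. Trim12c had an edgeR log2 fold change of -0.71 (SE 0.28, adjusted p = 1). It stood at 20.3 RPM in APP/PS1-ApoeKO hippocampus against 43 RPM in APP/PS1-ApoeKO cortex (ratio 0.471, interval 0.448 to 0.495), the 1 of 8 genes at least 2-fold lower, with 0 higher, beside 11.8% of 13461 genes higher and 14.1% lower. Its log2 ratio was -0.96 without plate number 2 and -0.85 without plate number 4, against -1.07, and tissue and lane cannot be told apart in these mice. In APP/PS1 mice it stood at 22.8 RPM in hippocampus against 31.9 RPM in cortex (ratio 0.714, interval 0.685 to 0.745). There, Trim30d alone of 6 measured genes was at least 2-fold higher and 0 were lower, beside 9.30% of 13059 genes higher and 9.97% lower. Its reads came from 1 cell in each tissue, and without plate number 4 its log2 ratio was -1.96, against 1.89 with all wells.

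Of 30 interferon response genes, 7 of 29 measured were at least 2-fold higher and 4 lower in the knockout group of the APP/PS1 cortex pair, 8 of 30 higher and 1 lower in the hippocampus pair, and 16 of 28 higher and 3 lower in the C57BL/6 pair. Over all genes measured, 18.9% were higher and 30.9% apart in either direction in the APP/PS1 cortex pair, 14.6% and 24.7% in the hippocampus pair, and 12.9% and 23.3% in the C57BL/6 pair. In the APP/PS1 cortex pair the list was close to these shares. Its median log2 ratios were 0.37, 0.41 and 1.38, and its genes summed to 829, 824 and 622 RPM in knockout cells, against 509, 617 and 374.6 RPM in Apoe-bearing cells. Bst2, which tethers budding viruses, was higher in all pairs, with 93.8 RPM in APP/PS1-ApoeKO against 15.3 RPM in APP/PS1 cortex, 86.8 RPM in APP/PS1-ApoeKO against 13.7 RPM in APP/PS1 hippocampus, and 88.5 RPM in C57BL/6-ApoeKO against 7.20 RPM in C57BL/6 cortex. Ifitm3, which blocks viral entry, was also higher in all pairs, with 59.5 RPM in APP/PS1-ApoeKO cortex against 33.8 RPM in APP/PS1 cortex, 50.05 RPM in APP/PS1-ApoeKO hippocampus against 19 RPM in APP/PS1 hippocampus, and 41.1 RPM in C57BL/6-ApoeKO cortex against 3.64 RPM in C57BL/6 cortex. The antiviral Ifit3 went both ways, with 28.6 RPM in APP/PS1-ApoeKO cortex against 20.04 RPM in APP/PS1 cortex, 24.6 RPM in APP/PS1-ApoeKO hippocampus against 36.1 RPM in APP/PS1 hippocampus, and 21.7 RPM in C57BL/6-ApoeKO cortex against 3.83 RPM in C57BL/6 cortex. Oasl2, a relative of the oligoadenylate synthases, did so too, with 12.8 RPM in APP/PS1-ApoeKO cortex against 16.1 RPM in APP/PS1 cortex, 38.7 RPM in APP/PS1-ApoeKO hippocampus against 19.9 RPM in APP/PS1 hippocampus, and 41.2 RPM in C57BL/6-ApoeKO cortex against 9.53 RPM in C57BL/6 cortex.

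In cortex with Apoe, 14 of 28 measured genes of the list were at least 2-fold higher and 2 lower in APP/PS1 than in C57BL/6 cells, beside 9.92% of all genes higher and 13.2% lower. Without Apoe, 6 of 29 were higher and 6 lower in APP/PS1-ApoeKO than in C57BL/6-ApoeKO cells, beside 13.3% and 13.2%. Ifi27l2a, an interferon-induced gene, stood at 31.5 RPM in APP/PS1 against 4.09 RPM in C57BL/6 cortex, and at 43.1 RPM in APP/PS1-ApoeKO against 19.02 RPM in C57BL/6-ApoeKO cortex. Oas1a, an oligoadenylate synthase, stood at 20.2 RPM in APP/PS1 against 4.23 RPM in C57BL/6 cortex, and at 21.6 RPM in APP/PS1-ApoeKO against 18.0 RPM in C57BL/6-ApoeKO cortex. Of the 8 Trim genes, Trim30a (ratio 1.23) and Trim34a (1.59) were higher in APP/PS1 than in C57BL/6 cortex. Trim12c (0.846), Trim30b (0.423), Trim30c (0.369) and Trim30d (0.7075) were lower there. Trim12a, at 0.0106 RPM in APP/PS1 and 0.00414 RPM in C57BL/6 cortex, and Trim5 were too low to count as measured. Across cells of a group, the Spearman correlation of Trim30a with the summed list was 0.19, 0.27 and 0.03 in the knockout groups and 0.06, 0.21 and 0.07 in the groups with Apoe, weak values over cells that share plates. In the knockout groups the same correlation was 0.07, 0.01 and 0.14 for Trim12a, 0.02, 0.05 and 0.06 for Trim5, and 0.15, 0.12 and 0.06 for Trim30d. The list's part in the Trim levels was not tested.

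Of 17 interferon receptor and signalling genes, 1 was higher and 0 lower of 16 measured in each of the 3 knockout comparisons, with median log2 ratios of 0.22, 0.16 and 0.08. Of 31 partners and downstream genes of TRIM5 and TRIM30, 1, 2 and 0 were at least 2-fold higher and 1, 0 and 1 lower, below the shares over all genes given above. Tab1, which activates the kinase TAK1, stood at 42.4 RPM in APP/PS1-ApoeKO cortex against 9.77 RPM in APP/PS1 cortex, 20.4 RPM in APP/PS1-ApoeKO hippocampus against 20.03 RPM in APP/PS1 hippocampus, and 26.8 RPM in C57BL/6-ApoeKO cortex against 27.3 RPM in C57BL/6 cortex, so it was nearly level outside the APP/PS1 cortex pair. Il1b, an inflammatory cytokine, stood at 0.682 RPM in APP/PS1-ApoeKO cortex against 29.2 RPM in APP/PS1 cortex, 2.75 RPM in APP/PS1-ApoeKO hippocampus against 3.52 RPM in APP/PS1 hippocampus, and 1.33 RPM in C57BL/6-ApoeKO cortex against 3.90 RPM in C57BL/6 cortex, with APP/PS1 cortex above the 5 other groups. Of the 49 other Trim genes, 6 of 31, 1 of 34 and 2 of 33 measured were at least 2-fold higher and 1, 9 and 5 lower in the knockout groups. Over all genes measured, 18.9, 14.6 and 12.9% were higher, and the Trim count in the APP/PS1 cortex pair is near that share. At least 2-fold lower were 1614 of 13459, 1348 of 13309 and 1418 of 13626 genes. Trim21, a cytosolic antibody receptor, stood at 13.7 RPM in APP/PS1-ApoeKO cortex against 18.6 RPM in APP/PS1 cortex, 16.4 RPM in APP/PS1-ApoeKO hippocampus against 25.8 RPM in APP/PS1 hippocampus, and 5.50 RPM in C57BL/6-ApoeKO cortex against 46.2 RPM in C57BL/6 cortex. Trim24, a nuclear cofactor, stood at 4.54 RPM in APP/PS1 against 26.9 RPM in C57BL/6 cortex, and at 14.2 RPM in APP/PS1-ApoeKO against 11.6 RPM in C57BL/6-ApoeKO cortex.

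Within 1 Mb of the 8 genes, 61 other genes are in the count table and 5 reached 1 RPM in a group. Fam160a2 stood at 27.7, 35.7 and 24 RPM in knockout cells, against 22.1, 35.9 and 44.9 RPM in Apoe-bearing cells. The pseudogene Gm5900 was lower without Apoe by 2-fold or more in all 3 pairs, at 0.147, 0.323 and 0.191 RPM in knockout cells, against 1.80, 1.16 and 1.16 RPM in Apoe-bearing cells. The olfactory receptor genes Olfr611 and Olfr612 had 0 reads in the knockout groups and reached 1.34 and 1.18 RPM in C57BL/6 cortex. They were nearly absent from the other groups with Apoe too, with 6 and 4 reads in APP/PS1 cortex and 1 and 0 in APP/PS1 hippocampus. The other gene was Trim34b.

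Over the 6 group sums the pattern of Trim12a, as log2 levels, was most like that of Lcp1 (Pearson r 0.994), Atraid (0.991), Scoc (0.990), Metap1d (0.989) and Mpc1 (0.988), out of 7508 genes with 20 RPM or more in a group. That of Trim30d was most like Clgn (0.997), Hs6st1 (0.983), Pde4d (0.983), Trp53 (0.982) and Elmod2 (0.978). The 8 genes themselves, predicted genes, Rik clones and mitochondrial genes were left out of this search, so likeness among the Trim genes was not ranked. These values describe 6 points that differ mainly in Apoe genotype and line. Likeness of pattern did not mean a like size: Atraid stood at 215.1, 215.6 and 215.8 RPM in knockout cells, against 191.3, 189.3 and 186.4 RPM in Apoe-bearing cells. Scoc stood at 167.5, 165.7 and 197.5 RPM in knockout cells, against 8.65, 8.25 and 15.2 RPM in Apoe-bearing cells, and Clgn at 37.1, 27.2 and 48.6 RPM in knockout cells, against 0, 1.36 and 0.0828 RPM in Apoe-bearing cells. Scoc, Clgn and Elmod2 lie within 1 Mb of one another on chromosome 8.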

How the data were processed

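The authors deposited a table of whole-number read counts per gene and cell. Per the submitters' processing notes, STAR 2.5.2, featureCounts 1.5.1 and Seurat 2.3.1 were used with the build mm10. The labels list 3072 wells in 8 groups, and 6 groups with counts for 1878 cells were analysed. The 1713 cells whose read total is in the labels were kept, while the other cells, all of APP/PS1-ApoeKO cortex, entered as an alternative only. No other filter and no doublet caller was applied to these sorted wells, and 0 pairs of cells held identical counts. Counts were summed per group and divided by the reads of the group (RPM). Levels have exact Poisson intervals and ratios exact binomial intervals at 95%, and shares of cells exact Clopper-Pearson intervals. The log2 ratios add 0.5 RPM, a gene is measured from 1 RPM in 1 of 2 groups, and the floor is 3 reads per group. RPM per kilobase uses the exons of GENCODE M21 merged per gene.

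The amyloid and tissue terms were tested with edgeR 4.0.16 (TMM, filterByExpr, glmQLFTest, threshold 0.05 on the adjusted p), and DESeq2 1.42.0 as an alternative, in R 4.3.3. The edgeR step was run on simulated counts with a spread set in advance and no Apoe or tissue effect. This does not show its power at the spread of these sums. Promoters are from RefSeq and coding sequences from GENCODE M21 on GRCm38, where 8 of 8 genes matched by symbol. Likeness was measured by Pearson correlation of log2(RPM + 0.5). Genes named from the other lists were at least 4-fold apart in 1 of 7 comparisons with 20 RPM in 1 group. Neighbours are all those with 1 RPM within 1 Mb. The 8 genes and the lists were chosen with earlier results of these data known. Alternatives were other scalings, added values, filters, cell sets, plate numbers and lanes.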

Additional observations from a re-analysis of the deposited data

Results flagged for a closer look

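Several ratios of the Trim genes stood on opposite sides of 1 in comparable pairs, with at least one of them 2-fold apart. None of these differences was tested, since each group is 1 sample. For Apoe knockout over Apoe-bearing cells, Trim30c had a ratio of 2.49 in APP/PS1 cortex and 0.720 in C57BL/6 cortex. Trim34a had a knockout ratio of 0.818 in APP/PS1 hippocampus and 2.20 in C57BL/6 cortex. For amyloid in cortex, Trim30b had a ratio of 2.14 without Apoe and 0.423 with Apoe, from 4 to 14 cells with a read per group. Trim30c had an amyloid ratio of 1.28 without Apoe and 0.369 with Apoe. For hippocampus over cortex, Trim30d had a ratio of 0.795 in APP/PS1-ApoeKO and 5.10 in APP/PS1, where 1 cell of each tissue held all its reads.

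Cells of APP/PS1-ApoeKO cortex that carry no read total in the labels entered none of the comparisons above. They came from another lane than the cells used, with a median of 416147 reads per cell and 5 Apoe reads in all. Trim12a stood at 36.4 RPM there, against at most 0.0106 RPM in a group with Apoe, with a read in 20.6% of the cells. Trim5 stood at 20.99 RPM, against at most 0.414 RPM, and Trim30d at 27.2 RPM, against at most 4.93 RPM. Trim30b stood at 18.0 RPM, against at most 5.30 RPM, Trim30a at 136.5 RPM, against at most 130 RPM, and Trim34a at 20.6 RPM, against at most 14.1 RPM. Trim12c and Trim30c were not above every group with Apoe. They stood at 31.3 and 11.4 RPM in these cells, against at most 37.7 and 11.95 RPM. Trim34b was read in these cells too, at 3.84 RPM.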

How the results depend on the processing

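The counts of Trim genes at least 2-fold apart, in either direction, in the 3 knockout comparisons stayed within 1.5 times the value given under every alternative run. The genes counted could change. Without plate number 4, Trim30c counted as lower in the APP/PS1 cortex pair (-2.35). Within a shared lane of the C57BL/6 pair, Trim34a dropped out (0.63) and Trim30c entered as lower (-1.67). Trim12a, Trim5 and Trim30d kept their sign in all alternatives. The lowest log2 ratios, with 5 RPM added or with plate number 3 left out, were still 2.99 for Trim12a, 1.91 for Trim5 and 1.90 for Trim30d. TMM changed the scaling between groups by -0.25 (log2) in the APP/PS1 cortex knockout pair, by 0.18 for hippocampus over cortex in APP/PS1-ApoeKO and by 0.12 for amyloid with Apoe, and ratios of low levels moved by less because 0.5 RPM is added. Trim5 and Trim30a changed sign from values near 0 for hippocampus over cortex in APP/PS1-ApoeKO.

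The other counts rest on few cells and moved. For amyloid without Apoe (1 gene apart), the count was 0 with TMM, with DESeq2 size factors, with the mean over cells and with 5 RPM added, and 0 to 3 when each plate number was left out. For amyloid with Apoe (2 genes), it was 1 with TMM, DESeq2 size factors, the mean over cells and a 10 RPM minimum, 0 with 5 RPM added, and 1 to 2 without each plate number. For hippocampus over cortex in APP/PS1-ApoeKO (1 gene), it was 0 with TMM, DESeq2 size factors, the mean over cells, 5 RPM added and all cells with counts, and 0 to 3 without each plate number. In APP/PS1 (1 gene), it was 2 with the mean over cells, 0 with 5 RPM added and with a 10 RPM minimum, 2 and 4 within the 2 shared lanes, and 1 to 3 without each plate number. Where a called ratio turned round, plate number 4 had been left out: Trim30c to -2.35 in the APP/PS1 cortex knockout pair (up to 1.97 without another plate number) and Trim30d to -1.96 for tissue in APP/PS1 (up to 3.88). DESeq2 called 1.76% of the tested genes for amyloid and 0.875% for tissue, against 0% by edgeR, and the cause was not tested. edgeR called 0 genes under each other setting and without each sum. So few sums remain beside the terms of the model that calls were hardly possible, and no stability is read from this. Of 48 shares of cells, 46 were inside the thinned interval without thinning. No paired analysis was possible because the numbers of cells are their order in the list and each group is 1 sample. Depth limits Trim12a in the groups with Apoe, where 3 reads are 0.0124 to 0.0192 RPM.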
